A study of Anolis carolinensis with 15 samples.

Results

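DNA replication and mitosis genes are the parts list of a dividing cell, and their transcripts were followed here in *col3a1*+ fibroblasts sorted from regenerating tails of the green anole lizard, *Anolis carolinensis*. The genes came from a list of 54 symbols, and 51 of them were present among the 26523 genes of the deposited tables. They comprised 25 of 26 replication (S phase) genes and 26 of 28 mitosis (G2/M) genes. The symbols *ccnd2*, *ccnb2* and *aurkb* were not matched and are not analysed here. All 51 were protein-coding genes of the RefSeq annotation of rAnoCar3.1.pri, 44 of them on 7 chromosomes and 7 on sequence without a chromosome.

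The 15 libraries fell into 5 groups of 3, which are called A, B and C after their titles. Fibroblasts came from tails at 7, 14 and 28 days after amputation (D7, D14 and D28), the inflammation, blastema and fully regenerated stages, and from tails at D21 of lizards injected with zoledronic acid (ZA) or with its vehicle, phosphate-buffered saline (PBS). ZA is a bisphosphonate that blocks osteoclasts, the cells that resorb bone, and it was given from the week before amputation. The lizards were bought from a vendor, were between 9 and 12 months of age and of both sexes, and no genotype is stated. Time course lizards are not said to have received an injection. Cells were dissociated, fixed, labelled by fluorescent probes for *col3a1* and sorted. The D21 sort took cells negative for *krt5*, an epidermal keratin, whereas the study's text describes the time course cells both as negative and as positive for *krt5*, so their gate is uncertain. The D21 libraries came from 3 tails per treatment and the time course from 3 repeats per timepoint, and whether a repeat pooled tails is not stated, so p-values measure the spread between these libraries. A single D14 library was sequenced before the other time course libraries, and since the sources do not name it, its effect could not be separated.

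A cell about to copy its DNA raises D- and E-type cyclins, and E2F factors then switch on the genes of replication. Origins are licensed by Cdc6 and Cdt1, which load the ring of Mcm2 to Mcm7, and Cdc45 and the GINS complex turn that ring into the moving helicase. Polymerase alpha with primase starts the strands, Pcna clamps the polymerases, and ribonucleotide reductase supplies nucleotides. Mitosis genes are switched on later, by Mybl2 and Foxm1, and include Cdk1 with its cyclins, Polo and Aurora kinases, the kinetochore, the spindle motors and the machinery that splits the cell. These roles are known mainly from mammals and yeast. The blastema is the mass of dividing cells from which the lizard tail regrows.

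Values are counts per gene, and levels are given as CPM, counts relative to the library total scaled by edgeR's TMM factors over the 15 libraries. CPM is not corrected for gene length, so levels are compared between libraries and not between genes. Library totals ranged from 4237978 to 12699682 counts, and the median count of a member ranged from 26 in ZA A to 190 in D14 B. D28 A stood apart. Its mean Spearman correlation with its own group was 0.799, against 0.866 and 0.868 for D28 B and D28 C and at least 0.924 for each D7 and D14 library. In D28 A 10 members were at 0 (*mcm2*, *ccne2*, *tyms*, *gins1*, *prim1*, *cdk1*, *bub1*, *ttk*, *pbk* and *hmmr*). Each 0 allows up to 3 counts or a CPM of 0.405 for counting error alone, which is no limit for other losses. Genes of low mean count, where detected, had a median of 23 counts in D28 A, against 6 to 9 in the other time course libraries. In PBS A this median was 13, against 6 to 7 in the other D21 libraries, and the cause was not tested. *col3a1* took 2.35% of the counts of D28 A, against 0.520% and 0.506% in D28 B and D28 C. Counts of calls that involve D28 are therefore given with and without it. For PBS A and ZA A the recorded treatment (not applicable and PBS) does not match the title, which was used here.

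The summed level of the replication members was highest at D7 and lower at D14 and D28. It was 573 ± 26.7 CPM at D7, 379 ± 8.13 at D14 and 329 ± 72.5 at D28 (mean ± SD, n = 3 each). The mitosis members stood at 950 ± 86.3 CPM at D7, 679 ± 30.2 at D14 and 376 ± 108 at D28. Between the first and the last timepoint the replication sum was 1.74-fold lower and the mitosis sum 2.53-fold lower, and in both sums every D7 library lay above every D14 and D28 library. The mitosis sum of all 3 D28 libraries also lay below all 3 D14 libraries, whereas the replication sum of D28 B, 412 CPM, exceeded that of every D14 library. Of that sum *pola1* held 106 CPM, against 50.3, 62.4 and 62.5 CPM in D14 A, B and C. D28 B exceeded each D14 library by more in *pola1* than in the sum, so this excess rests on that gene. In bulk RNA, fewer dividing cells and less RNA per dividing cell cannot be told apart.

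**Figure D1:**
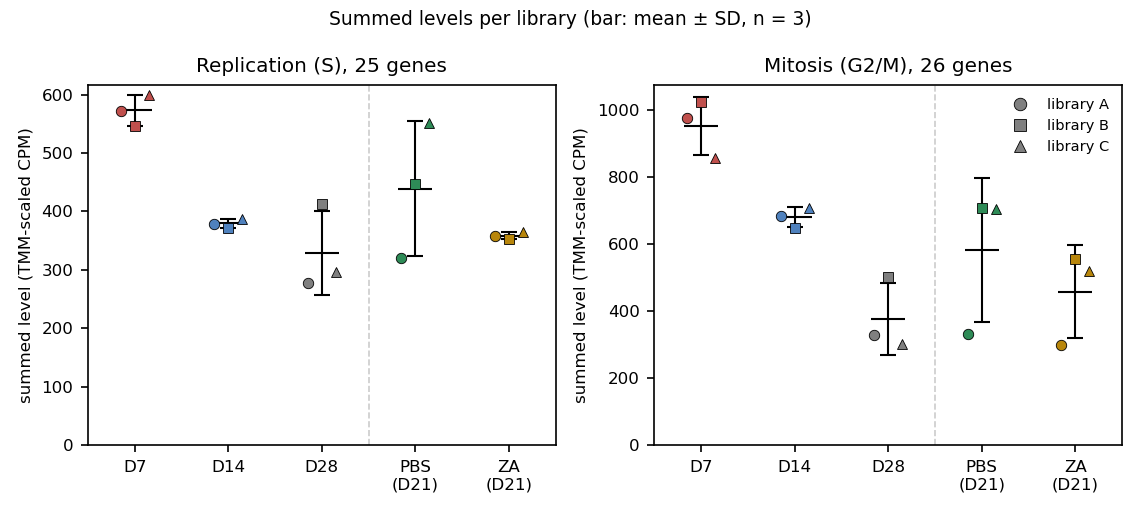
Summed level of the 25 replication members (left) and the 26 mitosis members (right) in TMM-scaled CPM, one point per library, with the group mean and SD as bars (n = 3). The D7 libraries sit at 547 to 600.0 CPM for replication and at 855 to 1022 CPM for mitosis, above all D14 and D28 libraries, while PBS and ZA libraries overlap in both panels.

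The proportion of mitosis to replication transcripts also differed. The ratio of the mitosis sum to the replication sum was 1.70, 1.87 and 1.43 in D7 A, B and C, and 1.81, 1.74 and 1.82 in the D14 libraries. It was 1.18, 1.21 and 1.02 in the D28 libraries, all of them below the 6 earlier libraries. In D28 B *pola1* held 106 of the 412 CPM of the replication sum, against 28.5 of 600 CPM in D7 C. The place of D28 B below D7 C depends on this gene. At D21 the ratio ranged from 1.04 to 1.58 after PBS and from 0.836 to 1.57 after ZA, so the D21 groups spanned most of the range of the time course. These ratios are a description without a test.

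The group mean was highest at D7 for 37 of 51 members (18 replication, 19 mitosis), at D14 for 9 and at D28 for 5. Of the 21326 genes that passed the filter, 34.9% had their highest mean at D7. The mean was lowest at D28 for 38 members, 16 of the replication and 22 of the mitosis genes, beside 30.4% of all genes tested. When all 15 libraries were ranked, the highest library was a D7 library for 31 members, a PBS library for 10, a D28 library for 7, a D14 library for 2 and a ZA library for 1.

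**Figure D2:**
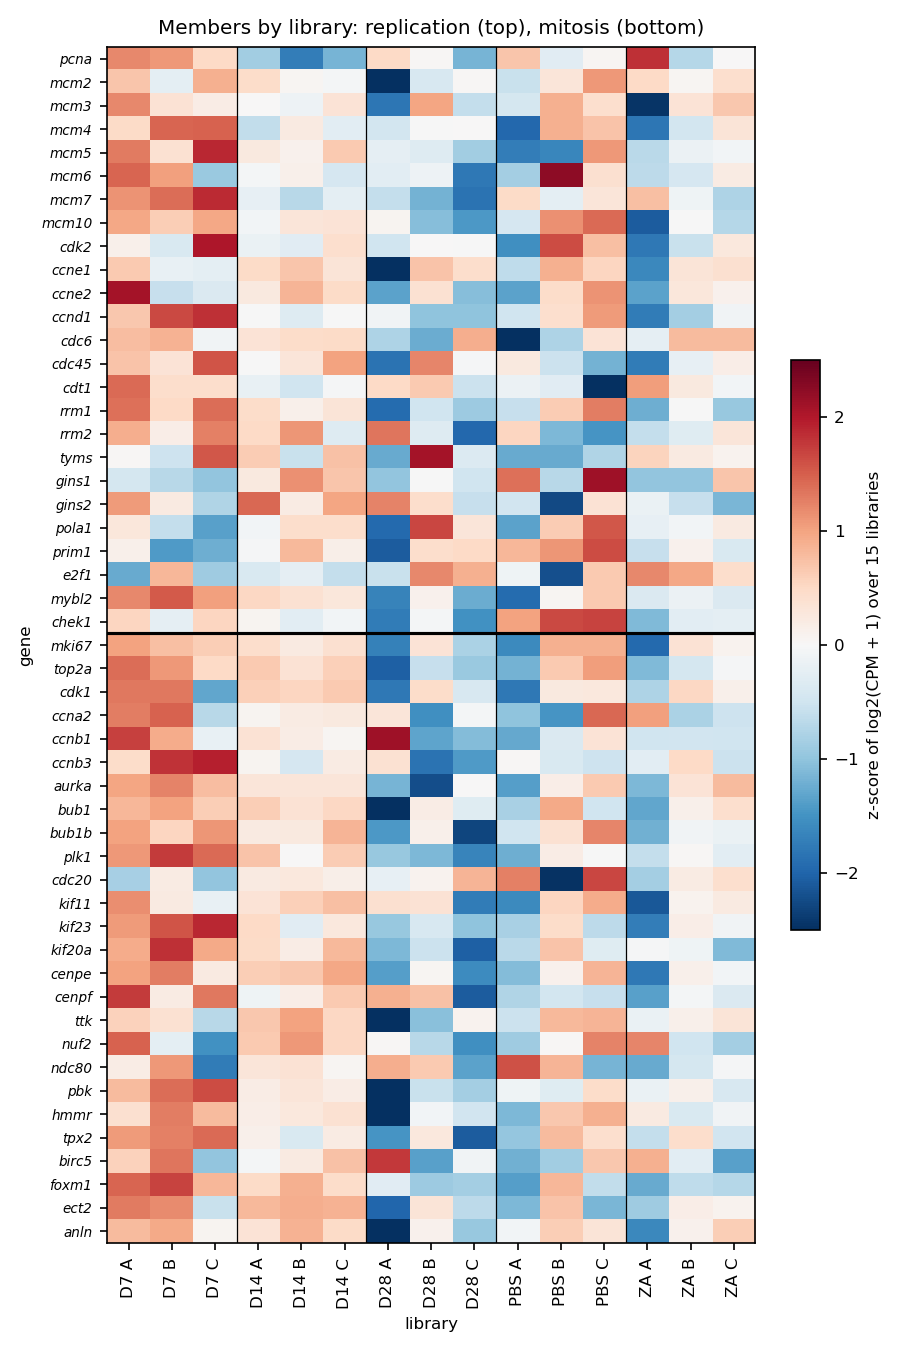
Level of each of the 51 members (rows) in each of the 15 libraries (columns), as z-scores of log2(CPM + 1) over the 15 libraries, with replication members above the thick line and mitosis members below it. The D7 columns are mostly red, D28 A holds the darkest blue cells, where 10 members are at 0, and also the highest value of 3 members, *rrm2*, *ccnb1* and *birc5*.

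The comparison of D28 with D7 spans the course from wound to regrown tail. Of 50 members tested 11 were lower at D28 by edgeR's quasi-likelihood test (adjusted p under 0.05 over all genes tested), which is 22%, and 0 were higher, with 0 higher also at an unadjusted p under 0.05 and by DESeq2 and limma. Over all genes tested, edgeR called 4.21% lower and 4.05% higher. DESeq2 called 18 members lower and limma 15, beside 7.53% and 5.49% of all genes. Of the 21326 genes tested, DESeq2 called 2133 and limma 912 higher. The members called by edgeR were 3 of 24 replication genes (*mcm7*, *ccnd1* and *rrm1*) and 8 of 26 mitosis genes (*plk1*, *kif23*, *top2a*, *kif20a*, *foxm1*, *pbk*, *tpx2* and *cenpe*). The median log2 fold change was -0.79 for replication and -1.38 for mitosis members, beside 0.13 for all genes tested, and 42 of 50 members were below 0, beside 45.5% of all genes. With an absolute log2 fold change over 2 also required, 6 members were called lower, beside 1.47% of all genes. An unadjusted p under 0.05 was reached by 20 members, all lower, beside 12.1% of all genes lower and 14.4% higher. The libraries of the groups did not overlap, with D28 lower, for 8 replication and 14 mitosis members, 22 in all, beside 13.7% of all genes, and for 9 and 15 members without D28 A. Groups with fewer libraries overlap less readily, and the share of all genes without overlap was not counted for that case. Without D28 A, 16 members were called lower, beside 9.18% of all genes, and *mcm5*, *mcm10*, *mybl2*, *ccnb1* and *ccnb3* joined the 11.

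**Figure D3:**
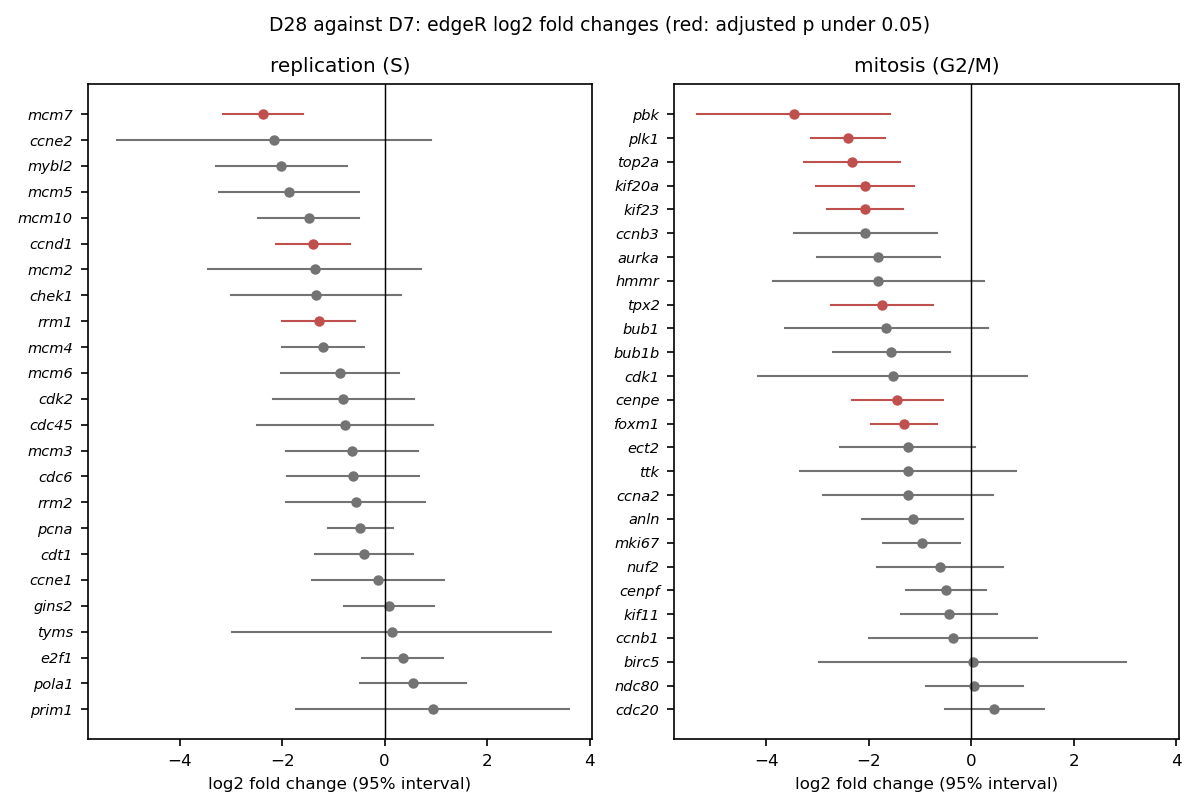
Log2 fold change of D28 against D7 for the 24 replication (left) and 26 mitosis members tested (right), with 95% intervals from the edgeR fit; red marks an adjusted p under 0.05. All 11 red genes lie left of 0, from *pbk* at -3.46 to *rrm1* at -1.29, and the intervals of *prim1*, *tyms* and *birc5* reach above 2.

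Among the mitotic kinases, *plk1*, the Polo kinase that drives entry into mitosis and centrosome maturation, showed the smallest p. It stood at 64.6, 97.9 and 79.8 CPM in D7 A, B and C, at 51.8, 33.5 and 49.3 in D14 and at 18.3, 16.4 and 11.6 in D28. The 3 groups formed steps that did not overlap, with each timepoint below the one before. The log2 fold change of D28 against D7 was -2.40 (SE 0.33, edgeR adjusted p = 0.00429), a 5.29-fold lower level, and it was called in each of the 9 fits that left out a library. *pbk* (chr1:141944-162456), a mitotic protein kinase, had the largest fold change, -3.46 (SE 0.87, edgeR adjusted p = 0.0320). Its D7 levels were 22.6, 39.7 and 49.3 CPM, its D14 levels 12.5, 14.0 and 12.5 CPM, and its D28 levels 0, 5.78 and 4.23 CPM. Its call was kept in 2 of 9 fits that left out a library, and the fold change ranged from -4.05 to -2.90 in them.

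*foxm1* (chr5:102301799-102337424), the transcription factor that switches on many G2/M genes in mammals, was at 65.0, 72.0 and 49.0 CPM at D7 and at 29.8, 22.6 and 23.2 CPM at D28. Its groups did not overlap, and the log2 fold change was -1.31 (SE 0.30, edgeR adjusted p = 0.0221). The D14 libraries, at 42.0, 50.6 and 41.8 CPM, overlapped those of D7 and lay above those of D28. *aurka*, the Aurora kinase of the spindle poles, gave -1.81 (edgeR adjusted p = 0.0637) and *ccnb3*, a B-type cyclin, -2.07 (edgeR adjusted p = 0.0658), so neither passed although their D28 libraries lay below their D7 libraries. *cdk1* (chr3:166445423-166467894), the kinase of mitotic entry, was counted low throughout. It was at 7.69, 7.59 and 0.404 CPM at D7 and at 0, 3.78 and 1.61 CPM at D28, and its groups overlapped (log2 fold change -1.54, SE 1.20, edgeR adjusted p = 0.447).

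*ccnb1* (chr2:290580292-290589978), the cyclin partner of Cdk1, depended on D28 A. Its levels were 13.9, 8.98 and 4.71 CPM at D7, 6.52, 5.85 and 5.43 at D14, and 17.1, 2.22 and 2.62 at D28, where the first value, from 127 counts, was the highest of all 15 libraries. With the 3 D28 libraries the log2 fold change against D7 was -0.36 (SE 0.76, edgeR adjusted p = 0.796). Without D28 A it was -1.91 (edgeR adjusted p = 0.00759).

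The machinery that builds the spindle and splits the cell had the lowest median of the role groups, with 7 of 7 members below 0 and a median log2 fold change of -1.74. Other role groups were close to it. Mitotic kinases, cyclins and *foxm1* had 8 of 8 below 0 and a median of -1.67, and *top2a* with *mki67* 2 of 2 and -1.65. These groups were made after the values were seen. *kif23* (chr4:143877194-143900251), the kinesin of the central spindle on which the cleavage furrow forms, stood at 64.2, 87.5 and 105 CPM at D7, at 45.3, 27.8 and 38.9 at D14 and at 18.2, 25.9 and 17.6 at D28. Each timepoint lay below the one before without overlap, and the change from D7 to D28 was -2.07 (SE 0.34, edgeR adjusted p = 0.00777), called in 9 of 9 fits that left out a library. *kif20a*, another kinesin of the central spindle, gave -2.08 (SE 0.44, edgeR adjusted p = 0.0177), from 21.9, 36.2 and 21.9 CPM at D7 to 6.48, 9.22 and 3.53 at D28. *tpx2* (chr4:249377902-249490100), which activates Aurora A on spindle microtubules, was at 53.6, 59.6 and 65.0 CPM at D7 and at 12.1, 33.6 and 8.37 at D28. Its D28 libraries spread widely, with D28 B highest, yet all lay below D7 (log2 fold change -1.74, SE 0.46, edgeR adjusted p = 0.0396). *hmmr*, *ect2* and *anln* were at -1.81, -1.24 and -1.14 and *kif11*, the motor that pushes spindle poles apart, at -0.43, and none of these passed.

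Chromosome structure showed the same order of groups. *top2a* (chr6:32272292-32310370), the topoisomerase that untangles sister chromatids, stood at 112, 88.3 and 57.1 CPM at D7, at 64.1, 51.4 and 61.1 at D14 and at 7.69, 24.8 and 19.0 at D28. D28 lay below both earlier groups, which overlapped each other. The log2 fold change against D7 was -2.33 (SE 0.43, edgeR adjusted p = 0.0109), called in 8 of 9 fits that left out a library. *mki67* (chr3:199147139-199196513), the proliferation marker Ki-67 that coats mitotic chromosomes, was at 183, 162 and 151 CPM at D7, at 139, 124 and 136 at D14 and at 48.0, 132 and 75.1 at D28. All 3 D28 libraries lay below D7, but the change of -0.97 (SE 0.35) did not pass (edgeR adjusted p = 0.103), with D28 B inside the D14 range.

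At the kinetochore, where chromosomes meet the spindle, 6 of 9 members were below 0 and 1 was called. This was *cenpe* (chr5:26088805-26134666), a kinetochore motor, at 51.5, 60.0 and 33.0 CPM at D7 and 12.8, 29.7 and 11.4 at D28 (log2 fold change -1.44, SE 0.41, edgeR adjusted p = 0.0488). The checkpoint kinase genes *bub1* and *bub1b* gave -1.65 and -1.56 with D28 below D7 in all libraries, and *ttk* gave -1.23 with overlap. *ndc80*, a core subunit that grips microtubules, was near 0 at 0.06 (SE 0.44), *cenpf* was at -0.49 (SE 0.36), and *cdc20*, the activator of the ligase that starts anaphase, was at 0.45 (SE 0.44). *birc5*, the gene of the survivin subunit of the Aurora B complex, was counted too low to read, with 0 counts in D28 B and a log2 fold change of 0.03 (SE 1.38).

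**Figure D4:**
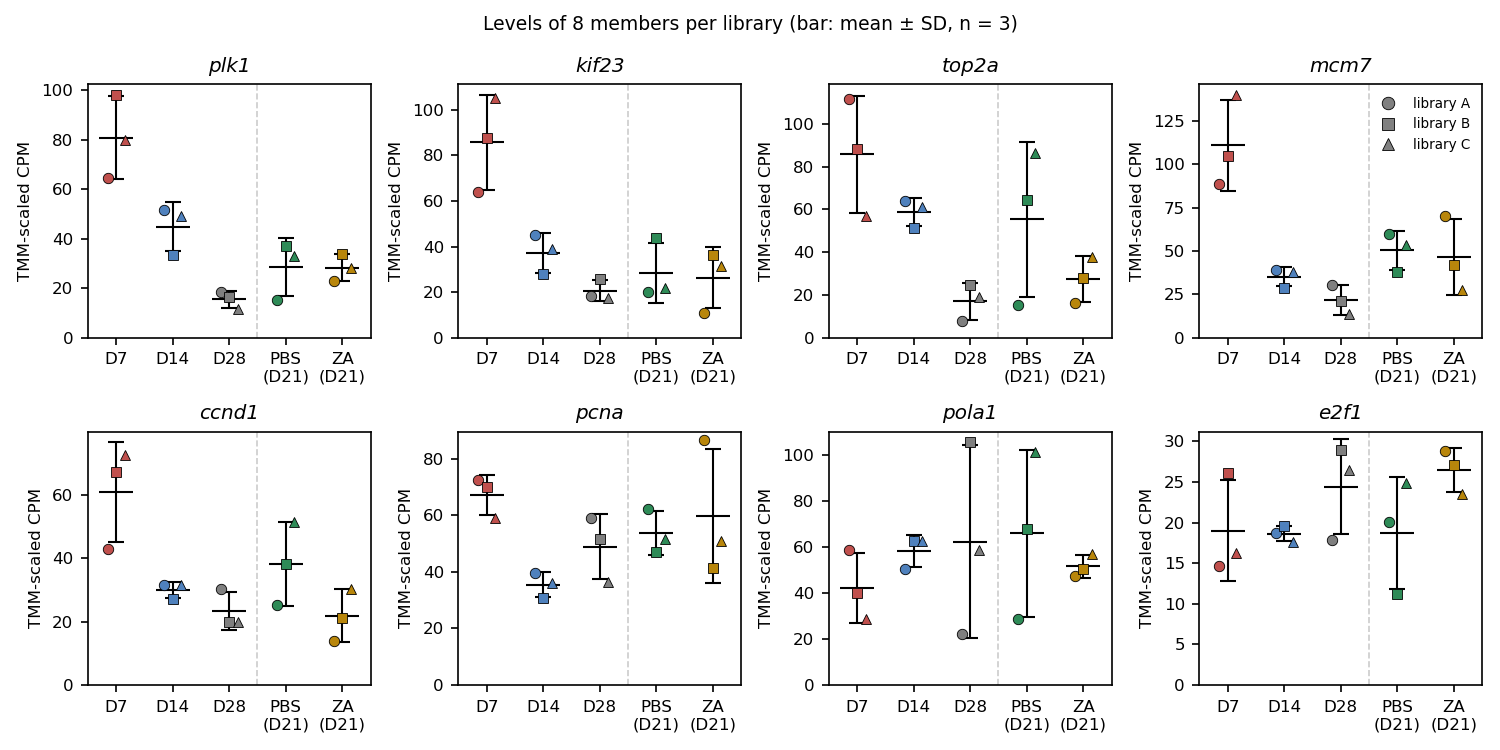
Levels of 8 members in TMM-scaled CPM, one point per library, with the group mean and SD (n = 3). In *plk1* and *kif23* the timepoints step down without overlap, *top2a* is lowest at D28, *mcm7* and *ccnd1* sit below D7 from D14 on, *pcna* is lowest at D14, and *pola1* and *e2f1* have their highest time course mean at D28 with overlapping libraries.

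Among the replication genes the helicase held the strongest change. *mcm7* (chr4:253846638-253863676), a subunit of the Mcm ring, stood at 88.4, 105 and 140 CPM at D7, at 39.1, 28.7 and 38.0 at D14 and at 30.6, 21 and 13.7 at D28. D7 lay above both later groups, which overlapped. The log2 fold change of D28 against D7 was -2.37 (SE 0.36, edgeR adjusted p = 0.00628), a 5.17-fold lower level, called in 9 of 9 fits that left out a library. The other ring subunits were *mcm5* at -1.87, *mcm2* at -1.36, *mcm4* at -1.20, *mcm6* at -0.87 and *mcm3* at -0.64. None of these 5 passed, and *mcm2* (chr2:64091433-64111687) ranged from 7.13 to 17.1 CPM at D7 and from 0 to 8.77 at D28 (SE 0.96, edgeR adjusted p = 0.390). The loaders *cdc6* and *cdt1* were at -0.61 and -0.41, and *cdc45* and *gins2*, which complete the helicase, at -0.78 and 0.09. *gins1* had too few counts to be tested.

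Of the G1 regulators, *ccnd1* (chr1:289892898-289916750), cyclin D1, which couples growth signals to the cell cycle, was at 43.0, 67.1 and 72.7 CPM at D7, at 31.5, 27.2 and 31.5 at D14 and at 30.4, 19.8 and 19.9 at D28. D7 lay above D14 and D28 (D28 against D7 -1.40, SE 0.33, edgeR adjusted p = 0.0258), and the call was kept in 3 of 9 fits that left out a library. *ccne1*, cyclin E1, which starts S phase with Cdk2, did not follow it. It was at 23.6, 14.6 and 14.0 CPM at D7 and 2.83, 24.2 and 20.8 at D28, with a log2 fold change of -0.13 (SE 0.59, edgeR adjusted p = 0.912). *ccne2* gave -2.15 (SE 1.41, edgeR adjusted p = 0.355) on levels of at most 9.20 CPM. *mybl2*, which with the MuvB complex turns on mitosis genes, gave -2.02 (edgeR adjusted p = 0.0539), and *e2f1*, the S phase factor, gave 0.35 (SE 0.36).

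The genes of DNA synthesis itself were divided. *rrm1* (chr3:2076597-2119176), the large subunit of ribonucleotide reductase, was at 59.9, 42.1 and 60.4 CPM at D7 and 15.5, 27.9 and 23.6 at D28 (log2 fold change -1.29, SE 0.33, edgeR adjusted p = 0.0339). Its partner *rrm2* gave -0.57 (SE 0.62), with D28 A the highest of the 15 libraries. *pcna*, the sliding clamp, was at 72.4, 70.0 and 59.1 CPM at D7, at 39.5, 30.6 and 36.2 at D14 and at 59.1, 51.5 and 36.3 at D28. It was lowest at D14, with D7 above D14 in every library, and D28 against D7 was -0.47 (SE 0.29, edgeR adjusted p = 0.321). *pola1* and *prim1*, of the polymerase and primase that begin each strand, were at 0.55 (SE 0.47) and 0.94 (SE 1.23), and *tyms* at 0.14 (SE 1.43). For *pola1* D28 A, B and C were at 22.1, 106 and 58.8 CPM, so the group ran from below to above all D7 libraries.

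The calls from D7 to D28 rested on the libraries to different degrees. Those of *plk1*, *mcm7* and *kif23* were kept whichever library was left out, and that of *top2a* was lost only without D7 B. The calls of *kif20a* and *foxm1* were lost without D7 B, D7 C or D28 C. *ccnd1* was called only without D7 A, D14 B or D28 A, and *pbk*, *rrm1*, *tpx2* and *cenpe* only without D28 A or D28 B. *foxm1*, *tpx2*, *pola1*, *mcm10*, *ccne2* and *anln* overlap another counted gene in the annotation, so the assignment of their reads is uncertain.

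The 8 members with a log2 fold change above 0 between D7 and D28 were thus *prim1*, *pola1*, *e2f1*, *tyms*, *gins2*, *cdc20*, *ndc80* and *birc5*. None passed, and they were named after their values were seen. Without D28 A DESeq2 called 21 members, 20 of them lower and *pola1* higher. Of the 21010 genes tested in that fit, 2693 (12.8%) were called lower and 2923 higher.

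From D7 to D14, as the blastema formed, 1 of 50 members was called lower (*mcm7*) and 0 higher by edgeR, beside 2.4% of all genes lower and 2.22% higher. At an unadjusted p under 0.05 the counts were 8 lower and 0 higher, beside 10.3% and 11.2% of all genes. With an absolute log2 fold change over 2 required, 0 were called, beside 0.694% of all genes lower. DESeq2 called 5 lower (*pcna*, *mcm4*, *mcm7*, *ccnd1* and *kif23*) and limma 2 (*mcm7* and *kif23*), and both called 0 higher. Over all genes tested, DESeq2 called 5.86% and limma 3.01% lower, and 1363 and 758 of 21326 genes higher. The change of *mcm7* was -1.66 (SE 0.35, edgeR adjusted p = 0.0221), and the call was lost without D7 B, D7 C or any of the D14 libraries. The members with the largest changes after it were *pbk* at -1.53, *ccnb3* at -1.41, *prim1* at 1.37 and *mcm4* at -1.23, and none of these passed. D14 lay below D7 in all libraries for 17 of 50 members, beside 18.6% of all genes, and 40 of 50 were below 0, beside 47.7%. The median log2 fold change was -0.46, beside 0.05 for all genes.

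Not every member was lower at D14. *ccne1* was at 21.3, 24.0 and 19.5 CPM in D14 (log2 fold change 0.30, SE 0.59), and the kinetochore genes had a median of -0.12 with 4 of 9 above 0. *mcm2*, *cdk1*, *ccnb1*, *mki67* and *top2a* were at -0.41, -0.31, -0.63, -0.32 and -0.55, and none of these 5 passed. *pcna* and *ccnd1* were at -0.93 (SE 0.29, edgeR adjusted p = 0.0884) and -1.03 (SE 0.33, edgeR adjusted p = 0.0924), both with D14 below D7 in all libraries. With D28 A out of the fit, which shares its estimate of the spread over all 9 libraries, 8 members were called, *pcna*, *mcm4*, *mcm7*, *ccnd1*, *ccnb3*, *plk1*, *kif23* and *pbk*, beside 8.26% of all genes.

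Between D14 and D28 the lower levels at D28 included more mitosis than replication members. By edgeR, 1 of 50 members was called lower (*plk1*, log2 fold change -1.55, SE 0.32, edgeR adjusted p = 0.0468) and 0 higher, beside 0.352% of all genes lower and 0.675% higher. An unadjusted p under 0.05 was reached by 10 members, all lower, 9 of them mitosis genes, beside 5.03% of all genes lower and 5.96% higher. With an absolute log2 fold change over 2 required, 0 were called, beside 0.3% of all genes lower. DESeq2 and limma each called *plk1* and *top2a*, beside 1.28% and 0.577% of all genes lower. Of the 9 fits that left out a library, the call of *plk1* was kept only in that without D28 A. Without D28 B 1 other member, *cenpe*, was called, beside 0.325% of all genes lower. D28 lay below D14 without overlap for 16 of 26 mitosis members and 3 of 24 replication members tested, beside 12.2% of all genes. Over all 51 members, tested or not, these counts were 16 of 26 and 4 of 25, and without D28 A they were 20 and 8. The share of all genes without D28 A was not counted, and groups with fewer libraries overlap less readily. The median log2 fold change was -1.03 for mitosis and -0.36 for replication members, beside 0.04 for all genes, and 41 of 50 members were below 0, beside 47.7% of all genes. Without D28 A *plk1* and *top2a* were called, beside 1.47% of all genes lower, and the medians were -0.92 and -0.30.

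The members with the largest changes from D14 to D28 were all mitosis genes save *ccne2*. They were *pbk* at -1.94, *ttk* at -1.87, *top2a* at -1.78 (SE 0.42, edgeR adjusted p = 0.0850), *ccne2* at -1.68 and *plk1*. *cdk1* gave -1.23 (SE 1.19), *mcm2* -0.95 (SE 0.95), *mki67* -0.65 (SE 0.35), *ccne1* -0.43 (SE 0.59) and *ccnd1* -0.37 (SE 0.33). *pcna* gave 0.45 (SE 0.29) and *ccnb1* 0.28 (SE 0.76). Since D14 enters here and D7 enters the other contrasts, the comparisons of the time course share libraries and are no independent evidence for one another.

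The comparison of ZA with PBS sets fibroblasts of lizards given the drug against those of lizards given its vehicle, at D21. By edgeR 0 of 49 members tested were called in either direction, beside 0.0369% of all genes lower and 0.00527% higher, which is 7 and 1 of 18988 genes. DESeq2 and limma also called 0 members, beside 0.226% and 0.0737% of all genes lower. At an unadjusted p under 0.05 there were 3 lower members, *chek1*, *prim1* and *mcm10*, and 0 higher, beside 2.71% and 2.02% of all genes. The median log2 fold change was -0.31, beside -0.003 for all genes tested, and 38 of 49 members were below 0, beside 50.2% of all genes. This count moved with the libraries, from 29 of 47 without PBS C to 40 of 49 without PBS A. *tyms* and *gins1* had too few counts to be tested.

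The summed levels overlapped. For replication they were 320, 447 and 551 CPM in PBS A, B and C and 357, 353 and 364 CPM in ZA A, B and C, with ZA inside the PBS range. For mitosis they were 332, 707 and 703 CPM after PBS and 299, 554 and 520 CPM after ZA. The A libraries were the lowest of each group for mitosis, so libraries of the same letter were also compared. ZA over PBS was 1.12, 0.790 and 0.661 for replication and 0.899, 0.783 and 0.739 for mitosis in letters A, B and C. Only the replication ratio of letter A was above 1. Both sums come from the same libraries, so the ratios for replication and mitosis are not independent.

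**Figure D5:**
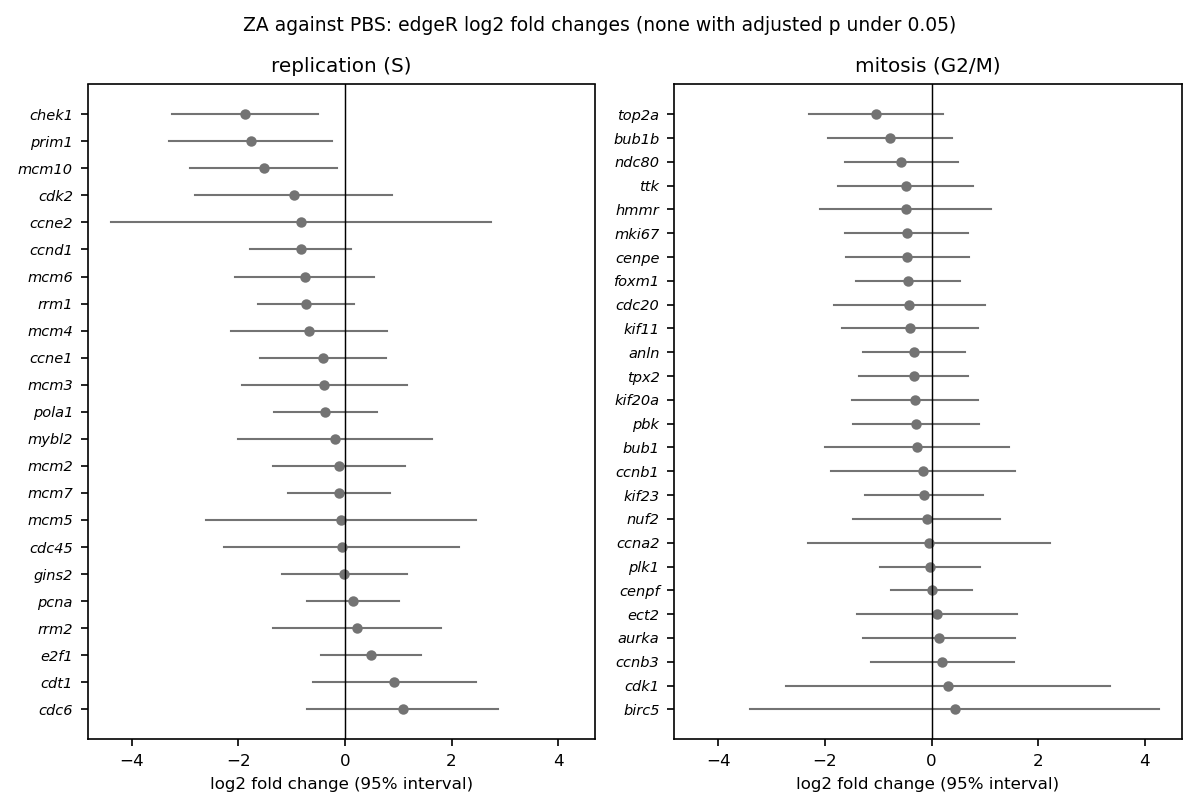
Log2 fold change of ZA against PBS at D21 for the 23 replication (left) and 26 mitosis members tested (right), with 95% intervals from the edgeR fit. No gene passes an adjusted p of 0.05, the intervals of *chek1*, *prim1* and *mcm10* lie left of 0 before adjustment, and only those of *plk1* and *cenpf* lie within 1 of 0 on both sides.

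*chek1*, the checkpoint kinase that holds cells with damaged or stalled replication, had the largest difference. It was at 7.95, 11.9 and 12.1 CPM after PBS and at 1.80, 3.45 and 3.48 CPM after ZA, from 7 to 99 counts per library. The groups did not overlap (log2 fold change -1.87, SE 0.62), yet the edgeR adjusted p was 0.895. The PBS libraries were also above all 9 time course libraries, which ranged from 0.944 to 5.94 CPM. *prim1* (chr2:156336463-156359820), the small primase subunit, was at 6.19, 7.67 and 11.5 CPM after PBS and at 1.80, 3.45 and 2.19 after ZA, again without overlap (log2 fold change -1.77, SE 0.69, edgeR adjusted p = 0.999). *mcm10*, which helps start the forks, was at 8.67, 23.9 and 28.1 CPM after PBS and 2.57, 11.4 and 7.16 after ZA, and its groups overlapped (-1.53, SE 0.63, edgeR adjusted p = 0.999). *cdt1* was the 1 member tested with ZA above PBS in all libraries, at 0.93 (SE 0.69). Members tested without overlap were thus 2 lower and 1 higher, beside 5.27% and 5.29% of all genes. *tyms*, which was not tested, was also higher after ZA without overlap, on at most 13 counts. It was at 0, 0 and 0.299 CPM after PBS and at 1.54, 1.15 and 0.994 after ZA.

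The markers most used for dividing cells overlapped between ZA and PBS. *mki67* was at 50.3, 173 and 173 CPM after PBS and at 42.2, 133 and 117 after ZA (log2 fold change -0.47, SE 0.53, edgeR adjusted p = 0.999). For *top2a* the levels were 15.4, 64.2 and 86.5 CPM after PBS and 16.5, 27.8 and 37.9 after ZA (-1.04, SE 0.57, edgeR adjusted p = 0.999). In both genes PBS A and ZA A stood below B and C of their own group. *pcna*, *mcm2*, *cdk1*, *ccnb1*, *ccne1* and *ccnd1* gave 0.15, -0.12, 0.31, -0.16, -0.41 and -0.83, with SEs of 0.39, 0.56, 1.38, 0.78, 0.53 and 0.43, and *cdc6* gave 1.08 (SE 0.81).

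These data do not show that ZA left the members as they were. The 95% interval of the difference had a median half-width of 1.30 on the log2 scale, a 2.47-fold change either way, and it reached below -1 for 43 of 49 members. For *plk1* it ran from -0.97 to 0.91 and for *cenpf* from -0.75 to 0.75. These intervals hold for each gene alone, without adjustment and without pairing libraries by letter, and differences within them are not excluded. They are no limit of detection for the adjusted test with 3 libraries a group. *chek1*, at -1.87, lay beyond the median half-width and was not called (edgeR adjusted p = 0.895).

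Genes of the same machinery outside the 51 members were counted next. From D7 to D28, 7 of 57 other replication genes were called lower, 12.3%, and 0 higher, beside 4.21% of all genes lower. They included *pold2* (-2.70), a subunit of polymerase delta, *pole* (-2.14), the catalytic subunit of polymerase epsilon, *blm* (-2.44), a helicase of fork repair, and *uhrf1* (-1.69), which maintains DNA methylation at forks. *pold2* was at 112, 116 and 153 CPM at D7 and between 16.4 and 32.2 CPM in every D14 and D28 library, so its levels did not overlap, and it was the 1 gene of this list called from D7 to D14 (-2.33, SE 0.32, edgeR adjusted p = 0.00621). Of 59 other mitosis genes 13 were called lower from D7 to D28, 22%, and 0 higher, led by *prc1* (-2.00), *troap* (-2.41), *racgap1* (-2.34) and *kif22* (-2.77). Prc1 bundles the central spindle and Racgap1 forms a complex with Kif23 there. *racgap1* stood at 48.3, 65.9 and 62.9 CPM at D7, at 19.0, 21.5 and 32.1 at D14 and at 9.58, 10.9 and 14.7 at D28, steps without overlap like those of *kif23*.

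From D14 to D28 *troap* alone was called among the other mitosis genes (-1.83, SE 0.36, edgeR adjusted p = 0.0360), and *prc1* alone was called from D7 to D14 (-1.28). From D14 to D28, 17 of 59 were lower and 0 higher at an unadjusted p under 0.05, beside 5.03% of all genes lower and 5.96% higher. No other replication gene was called from D14 to D28 by edgeR, with 7 of 57 lower and 1 higher at an unadjusted p under 0.05, beside these same shares. For ZA against PBS edgeR called 0 of 55 other replication genes (3 lower and 1 higher at an unadjusted p under 0.05) and 0 of 58 other mitosis genes (0 at an unadjusted p under 0.05). The shares of all genes at that threshold were 2.71% lower and 2.02% higher.

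Genes that restrain division were counted in the same way, in a list that also held G1 genes that promote it. Of 39 inhibitors, quiescence genes and their G1 counterparts, edgeR called 0 higher in any of the 4 comparisons. At an unadjusted p under 0.05 there were 16 lower and 3 higher from D7 to D14, 1 lower and 4 higher from D14 to D28, 9 lower and 3 higher from D7 to D28, and 1 lower and 0 higher for ZA. The shares of all genes were, in the same order, 10.3% lower and 11.2% higher, 5.03% and 5.96%, 12.1% and 14.4%, and 2.71% and 2.02%. From D7 to D14 the D14 libraries lay below D7 without overlap for 20 of the 39, beside 18.6% of all genes and 17 of 50 members, and the median log2 fold change was -0.50, beside -0.46 for the members. The summed level of the list was 6461 ± 1158 CPM at D7, 4215 ± 430 at D14 and 4629 ± 474 at D28 (mean ± SD, n = 3 each). Higher levels at D7 than at D14 were thus shared by the members and this mixed list, whose genes that restrain division were not counted apart. Whether the lists differ was not tested. Those called lower were *ccnd3* from D7 to D14 (-1.49, SE 0.30, edgeR adjusted p = 0.0201) and *cdk4* and *tob2* from D7 to D28 (-2.10 and -1.51). *ccnd3* and *cdk4*, a D-type cyclin and the kinase it activates, promote division, and *tob2* is an antiproliferative gene. *cdk4* was at 13, 28.3 and 21.4 CPM at D7 and at 4.32, 6 and 4.44 CPM at D28.

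Markers of other cells moved with these groups. Of 30 epidermal markers 23 were in the files, without *krt5*, *krt14*, *krt15* and *cdh1*, and 17 of 23 were called higher both from D7 to D14 and from D7 to D28, 0 lower. Their summed level ranged from 1044 to 1788 CPM at D7, from 6022 to 8590 at D14, from 2065 to 9958 at D28, from 3254 to 8542 after PBS and from 8690 to 12574 after ZA, with *foxn1* and *ovol1* at 0 in a D28 library. D28 A was the lowest D28 library in these markers, at 2065 CPM. The summed level of 13 fibroblast markers was 20292 to 23238 CPM at D7, 7991 to 9615 at D14 and 26415 to 95952 at D28, the last in D28 A. It was 16930 to 45400 CPM after PBS and 8585 to 21736 after ZA. These 13 markers did not move as one. From D7 to D28, 3 were called lower and 1 higher, with 6 below 0 and 7 above. The called markers were *twist1*, *fbln1*, *lum* and *fn1*, named in order of p and not of direction. From D7 to D14, 3 were called lower (*twist1*, *fn1* and *pdgfrb*) and 0 higher. From D14 to D28, 3 were called higher (*postn*, *col1a1* and *col1a2*) and 0 lower. For ZA against PBS 0 of 12 tested were called, with 11 below 0. The part of changes in cell makeup in the members' differences was not tested.

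Cartilage markers, 13 of 14 in the files, stood at 1010 to 1183 CPM at D14 and 9173 to 11873 at D28, and 7 of 12 tested were called higher at D28. For ZA against PBS 2 of 12 cartilage markers were called lower, *col9a3* (-5.84) and *acan*, with sums of 5221 to 36838 CPM after PBS and 1022 to 2005 after ZA. Macrophage and leukocyte markers, 14 of 20 in the files, summed to 33.5 to 173 CPM in the time course and to 41.6 to 260 CPM at D21, with *spi1* at 0 in libraries of D7, D28 and PBS and *tyrobp* in these and in ZA. Osteoclast markers, 9 of 11 in the files, summed to 692 to 739 CPM at D7 and to 138 to 286 CPM at D14 and D28, with *mmp9* and *itgb3* the 2 called lower from D7 to D14. *acp5*, *ocstamp* and *atp6v0d2* were at 0 in D7 libraries. Of 7 tested, 2 were above 0 from D7 to D14 and 5 from D14 to D28, where the 1 called, *mmp9*, was lower. From D7 to D28 *mmp9* and *itgb3* were called lower and 0 higher, with 6 below 0 and 1 above. At D21 the osteoclast markers summed to 198 to 264 CPM after PBS and to 209 to 283 after ZA. For ZA against PBS 0 of 7 were called and 5 were above 0. ZA lay above PBS without overlap for 3, beside 5.29% of all genes. Schwann and pigment markers (16 of 17 in the files) had 6 of 16 called higher from D7 to D28, skeletal muscle markers (14 of 15) 3 of 12, and endothelial (15 of 15) and erythrocyte markers (11 of 15) 0 of 15 and 0 of 10. At an unadjusted p under 0.05 the last pair of lists had 2 higher and 1 lower each, beside 14.4% and 12.1% of all genes. The part of these cells in the members' differences was not tested either.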

How the data were processed

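RNA of fixed, probe-sorted *col3a1*+ cells was sequenced by the authors after ribosomal RNA depletion with a stranded total RNA kit. Reads were aligned by the authors to rAnoCar3.1.pri with STAR, and the submitters' processing notes name SAMtools 1.17 and DESeq2 1.45.1. A whole-number count per gene was deposited for each library. The files are named as normalized, but totals differed between libraries and the values were used as counts as the authors deposited them. The counting tool and its strand setting are not given in the sources used here, so reads of overlapping genes cannot be told apart. Of the 44 members on chromosomes, 6 overlap another counted gene (*mcm10*, *ccne2*, *pola1*, *tpx2*, *foxm1* and *anln*).

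The members and lists were chosen with earlier results of these data known. Groups followed the library titles. The minimum was 10 counts in 3 or more libraries of a fit, and the genes that met it were tested with edgeR 4.0.16 (TMM, quasi-likelihood test, Benjamini-Hochberg adjustment over all genes tested, calls at an adjusted p under 0.05), in 1 fit of the 9 time course libraries and 1 of the 6 D21 libraries. Standard errors were obtained from each log2 fold change and the square root of its F. The fits were tested on simulated counts. Totals of 4237978 to 12699682 counts limit the precision but do not set it alone. For a 0, 3 counts were taken as the limit, for counting error only.

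The genes named are *mki67*, *top2a*, *pcna*, *mcm2*, *cdk1*, *ccnb1*, *ccne1* and *ccnd1*, the called members and the 5 with the largest change in each comparison, and up to 4 called genes of every other list. Further members were named after their values were seen, and the grouping by role was made after the values were seen. Deviations from the group means of PBS and ZA libraries with the same letter correlated across genes at 0.241 (A), 0.194 (B) and 0.152 (C), so the letters were taken to pair these libraries. A fit with the letter as a block called 0 members as well, beside 0.163% of all genes lower. The fold changes, SEs and intervals given for ZA against PBS are those of the fit without this block. With the block the median log2 fold changes were -0.21 for replication and -0.23 for mitosis members.

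Alternatives were the replicate block, DESeq2 1.42.0, DESeq2's size factors in edgeR, limma 3.58.1 on log2(CPM + 1), no filter, a minimum mean count of 50, an added absolute log2 fold change over 2, all 15 libraries in 1 fit, each library left out, a fit without either D21 library A, and one that took recorded treatments literally. Fits without D28 A (with the replicate block and with DESeq2) were added after the data were seen. R 4.3.3, Python 3.11.15 and matplotlib 3.10.9 were used. Chromosome positions are those of RefSeq for rAnoCar3.1.pri.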

Additional observations from a re-analysis of the deposited data

How the results depend on the processing

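For ZA against PBS, 0 members were called under every alternative run, the replicate block and that with recorded treatments taken literally included. All genes called lower were at most 0.226%, with DESeq2, and 0.163% with the block. With recorded treatments taken literally, or without PBS A, PBS C or any ZA library, 0 of all genes tested were called. In those fits the 0 is no result about the members. Members below 0 were 38 of 49, and 33 of 49 with the block and with limma, 37 of 49 with DESeq2 and 29 of 47 without PBS C. Without PBS C the medians were -0.20 for replication and -0.10 for mitosis members, and without PBS A they were -0.66 and -0.44. For D28 against D7, 11 members were called, and the count was 6 with the replicate block, 6 with an absolute log2 fold change over 2 required, 18 with DESeq2 and 3 to 16 when 1 library was left out, lowest without D7 B and highest without D28 A. It was 4 without D7 C, 5 without D28 C, 6 without D14 A or D14 C and 7 without D14 B. All genes called lower were 2.23% with the block, 1.47% with the fold and 7.53% with DESeq2. They were 0.92% without D7 B, 0.815% without D7 C, 9.18% without D28 A and 2.1% without D28 C. Without a D14 library they were 2.55% to 2.96%. In fits added after the data were seen, DESeq2 without D28 A called 21, beside 12.8% of all genes lower. The block without D28 A gave a median over members of -0.89 in place of -1.23. For D14 against D7, 1 was called, and the count was 0 with the fold required, 2 with limma and with a minimum mean count of 50, 5 with DESeq2, and 0 to 8 when 1 library was left out. It was 0 without D7 B, D7 C or any D14 library and 8 without D28 A, or 6 and 8 when D28 A was left out with the block and with DESeq2. All genes called lower were 3.01% with limma, 3.9% with the mean count of 50 and 5.86% with DESeq2. Without D28 A they were 8.26%, or 6.28% with the block and 11.1% with DESeq2. Without D7 B they were 0.179%, without D7 C 0.297% and without a D14 library 0.178% to 0.719%. The median over members was -0.46, or -0.32 without D7 A. For D28 against D14, 1 was called, and the count was 0 with the fold required, with the replicate block, with DESeq2's size factors and with all 15 libraries in 1 fit, 2 with DESeq2 and with limma, 8 with DESeq2 without D28 A, and 0 to 2 when 1 library was left out. It was 0 without any D7 or D14 library or D28 C and 2 without D28 A. All genes called lower were 1.28% with DESeq2, 0.577% with limma, 1.47% without D28 A and 4.74% with DESeq2 without D28 A. They were 0.202% with the block, 0.319% with DESeq2's size factors and 0.222% with all 15 libraries. Without a D7 library they were 0.175% to 0.217%, without a D14 library 0.096% to 0.111% and without D28 C 0.275%.

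In the time course, deviations of libraries with the same letter correlated at -0.118 to 0.118, so the letters share a name and the block is no evidence of a weaker effect. Without TMM the median gene shifts by 0.20 (log2) for D14 against D7 and by -0.16 for D28 against D14. The summed ratios of D14 to D7 were then 0.760 for replication and 0.816 for mitosis in place of 0.662 and 0.715, and 36 in place of 40 members had a lower mean at D14. With TMM, the ratio for replication was 0.605 without *pola1*, its most counted member over the 15 libraries. The mean of *pola1* was 42.3 CPM at D7 and 58.4 CPM at D14, so leaving it out lowers the ratio. *mcm7*, the replication member with the highest mean at D7 (111 CPM, and 35.3 CPM at D14), was kept in that ratio. The cause of these differences was not tested, except that leaving out libraries leaves fewer samples. No value called with all libraries changed sign in the alternatives run. Among the genes named by the rule, and for values not called with all libraries, the sign changed when 1 library was left out for *cdk1* (D14 against D7, -0.85 to 0.07), *ccnb1* (D28 against D14, -1.28 to 0.71, and D28 against D7, -1.91 to 0.08), *ccne1* (D28 against D14, -0.83 to 0.06, and D28 against D7, -0.52 to 0.37), and for ZA against PBS *pcna* (-0.28 to 0.42), *mcm2* (-0.45 to 0.44), *cdk1* (-0.26 to 0.74) and *ccnb1* (-0.45 to 0.25).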
